A study of Mus musculus with 28 samples.

Results

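The Cyp2a family of the mouse comprises cytochrome P450 enzymes of the endoplasmic reticulum, and its 4 genes measured here were Cyp2a4, Cyp2a5, Cyp2a12 and Cyp2a22. They were taken as the rows of the deposited table whose gene symbol is one of these names, which gave 4 of 24197 genes. The values come from polyadenylated RNA of liver nuclei, sequenced in 28 libraries of 8 groups, with 1 liver per library. All mice were of the outbred strain Crl:CD1(ICR). They received either vehicle alone or TCPOBOP, a man-made ligand that activates CAR, the constitutive androstane receptor encoded by Nr1i3. Both were injected intraperitoneally.

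At 2 weeks the mice were 9 to 10 weeks old and had received 3 mg/kg TCPOBOP, or vehicle, in a low volume of corn oil with DMSO (4 µl per g body weight, 10% DMSO). These groups held 4 TCPOBOP and 3 vehicle males, and 4 TCPOBOP and 3 vehicle females. At 8 weeks the males were 15 to 16 weeks old, and a first dose of 3 mg/kg was followed by smaller ones. The high corn oil regimen injected 20 µl per g, with 2% DMSO at the first dose, and its later weekly doses were 1 mg/kg. It held 3 TCPOBOP and 3 vehicle males. In the low corn oil regimen, given as at 2 weeks, the later doses were 1.5 mg/kg, with 4 TCPOBOP males and 4 vehicle males treated for 4 to 8 weeks. Of these 4 vehicle males, 2 were 11 to 12 weeks old, so age and treatment cannot be fully told apart in that comparison.

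Cytochromes P450 of the endoplasmic reticulum oxidise lipophilic compounds with electrons delivered by P450 oxidoreductase. Among the members, Cyp2a5 hydroxylates coumarin and oxidises nicotine and bilirubin, and is the mouse counterpart of human CYP2A6. Cyp2a4 and Cyp2a12 hydroxylate steroids such as testosterone, and Cyp2a4 is known for its higher level in the female liver. CAR moves to the nucleus when activated and induces drug-metabolising enzymes in hepatocytes, and the sex difference of many liver P450s is set by the sex-specific pattern of growth hormone secretion.

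The 4 genes lie in one cluster on mouse chromosome 7, in the order Cyp2a4, Cyp2a5, Cyp2a22 and Cyp2a12, and form 2 pairs of close sequence. The coding sequence was taken as the longest frame from a start to a stop codon in a GENCODE M21 transcript of each gene. This gave 1485 bases for Cyp2a4 and 1542 for Cyp2a5, whose frame opened 57 bases earlier. Cyp2a4 and Cyp2a5 were identical at 1462 of 1485 aligned bases (98.5%), with 23 substitutions. Cyp2a12 and Cyp2a22 were identical at 1434 of 1479 bases (97.0%), with 45 substitutions. Genes of different pairs were 75.3% to 76.4% identical. The stretch below is shown because it holds the codon that is known to set the substrate preference of Cyp2a4 and Cyp2a5, phenylalanine in the coumarin hydroxylase and leucine in the steroid hydroxylase. It covers coding bases 596 to 655, counted from the first base of the Cyp2a4 start codon, and capitals mark the 4 bases that differ.
Cyp2a4: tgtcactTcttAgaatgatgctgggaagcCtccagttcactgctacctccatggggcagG
Cyp2a5: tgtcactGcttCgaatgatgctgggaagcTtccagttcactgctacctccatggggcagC
The change C625T (base of Cyp2a4, position, base of Cyp2a5) turns codon 209 from CTC in Cyp2a4 to TTC in Cyp2a5.

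This similarity limits what counting can separate. Of all windows of 50 bases in the Cyp2a4 coding sequence, 38.1% occurred without a mismatch in Cyp2a5, and of those of Cyp2a12, 30.2% occurred in Cyp2a22. None was shared between the pairs. Reads were counted over whole gene bodies, whose introns were not compared here, and the sources used here do not state how reads matching both genes of a pair were assigned. The separate values of Cyp2a4 and Cyp2a5, and of Cyp2a12 and Cyp2a22, are therefore uncertain to an unknown degree, and the sums of the first pair are given beside them.

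The promoters fall into the same pairs. The windows below, from RefSeq on GRCm38.p6, run from 250 bases before to 50 bases after each annotated start, and are shown because 3 of these 4 genes rose with TCPOBOP in the same comparisons. Capitals mark the single bases that differ within a pair. The windows are chr7:26306942-26307241 on the plus strand for Cyp2a4, chr7:26835089-26835388 on the plus strand for Cyp2a5, chr7:26939337-26939636 on the minus strand for Cyp2a22 and chr7:27028840-27029139 on the plus strand for Cyp2a12.
Cyp2a4: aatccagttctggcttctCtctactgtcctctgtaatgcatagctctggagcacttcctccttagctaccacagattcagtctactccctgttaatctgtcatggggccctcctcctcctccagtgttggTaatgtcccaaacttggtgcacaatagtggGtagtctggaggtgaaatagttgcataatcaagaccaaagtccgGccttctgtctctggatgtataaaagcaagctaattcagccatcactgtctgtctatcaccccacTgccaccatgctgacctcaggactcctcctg
Cyp2a5: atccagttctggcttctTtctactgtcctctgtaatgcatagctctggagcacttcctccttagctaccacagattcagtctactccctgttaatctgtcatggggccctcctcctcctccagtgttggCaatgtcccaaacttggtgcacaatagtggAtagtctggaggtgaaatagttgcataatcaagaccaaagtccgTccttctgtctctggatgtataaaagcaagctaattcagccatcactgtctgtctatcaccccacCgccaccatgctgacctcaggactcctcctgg
Cyp2a22: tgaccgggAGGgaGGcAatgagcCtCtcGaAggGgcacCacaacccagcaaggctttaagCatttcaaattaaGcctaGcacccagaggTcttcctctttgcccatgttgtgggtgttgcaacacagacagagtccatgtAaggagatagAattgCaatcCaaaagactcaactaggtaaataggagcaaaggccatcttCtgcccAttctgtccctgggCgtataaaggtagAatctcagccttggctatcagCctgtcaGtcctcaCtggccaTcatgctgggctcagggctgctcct
Cyp2a12: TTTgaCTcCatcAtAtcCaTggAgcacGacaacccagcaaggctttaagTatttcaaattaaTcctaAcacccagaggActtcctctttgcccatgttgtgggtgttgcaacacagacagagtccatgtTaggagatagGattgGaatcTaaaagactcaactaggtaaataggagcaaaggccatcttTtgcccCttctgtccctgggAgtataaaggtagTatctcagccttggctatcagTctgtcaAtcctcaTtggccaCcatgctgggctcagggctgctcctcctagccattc
The Cyp2a4 and Cyp2a5 windows were identical at 294 of 299 aligned bases (98.3%). Counted from the first base of the Cyp2a4 window, with the Cyp2a4 base first, the 5 substitutions were C19T, T131C, G161A, G205T and T270C. The Cyp2a22 and Cyp2a12 windows were identical at 261 of 289 bases (90.3%), with 28 substitutions, of which 12 lay between 212 and 242 bases before the start of Cyp2a22. Windows of different pairs were 58.1% to 65.0% identical.

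**Figure D1:**
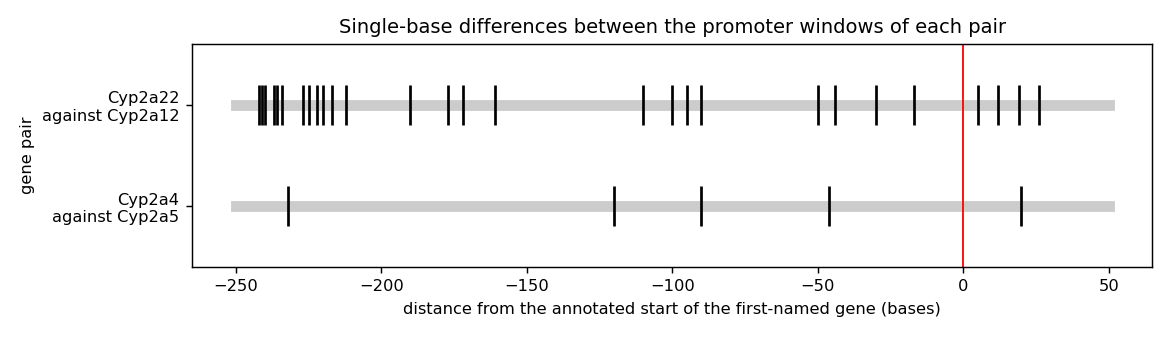
Position of each single-base difference between the promoter windows of Cyp2a22 and Cyp2a12 and of Cyp2a4 and Cyp2a5, as bases from the annotated start (red line) of the first-named gene. The pair Cyp2a4 and Cyp2a5 has 5 differences spread over the window, and the other pair has 28, of which 12 lie at its far end.

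Short motifs were searched on both strands of the windows and of all 32851 promoter windows of the same length, and were chosen with these sequences in view. AGGTCA, the half-site of many nuclear receptors, was present once in Cyp2a4 and in Cyp2a5, after the start, and in neither other member, against 16.3% of all windows. Its direct repeat spaced by 4 bases, a form bound by CAR with its partner RXR, was in no member and in 0.0152% of windows. CAAAGTCC, a form of the HNF4 half-site, and TTGCNNAA, a form of the C/EBP site, were each present in Cyp2a4 and Cyp2a5 and in neither other member, against 1.42% and 10.8% of windows. CACGTG, an E-box, and TTCNNNGAA, the STAT motif through which growth hormone acts, were in no member and in 7.15% and 8.30% of windows. TATAAA was in all 4 members and in 13.6% of windows. A match here is only a run of letters, and a missing match concerns these windows alone.

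Levels are given as FPKM, fragments per kilobase of gene scaled to library size, so that genes of different length can be set side by side. Each is the authors' pooled value for a group. Values of single libraries were not analysed here, so no spread between mice stands beside a level, sequencing depth is unknown, and neighbours in an order of levels cannot be said to differ beyond error. Tests are those of the authors' deposited table, made with edgeR, whose adjusted p is corrected over all genes and rests on the spread between mice. A gene is said to have risen or fallen where that p was under 0.05, and the fold changes carry the authors' scaling between groups.

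Cyp2a5 rose with TCPOBOP in all 4 treatment comparisons, Cyp2a4 and Cyp2a22 rose in 3 of them, and Cyp2a12 was not called in any. Of the 4 members, 1 rose in 2-week males in the authors' deposited table, where 2.52% of all genes rose. In 2-week females 3 of 4 rose, against 3.45% of all genes in the authors' deposited table. In 8-week males 3 of 4 rose in the high corn oil regimen, against 4.08% of all genes, and 3 of 4 in the low corn oil regimen, against 3.72%, again in the authors' deposited table. No member fell in any of these comparisons. The median log2 fold change of the 4 members was 1.33, 1.92, 3.41 and 2.90 in the same order, and that of all genes was 0 in each.

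**Figure D2:**
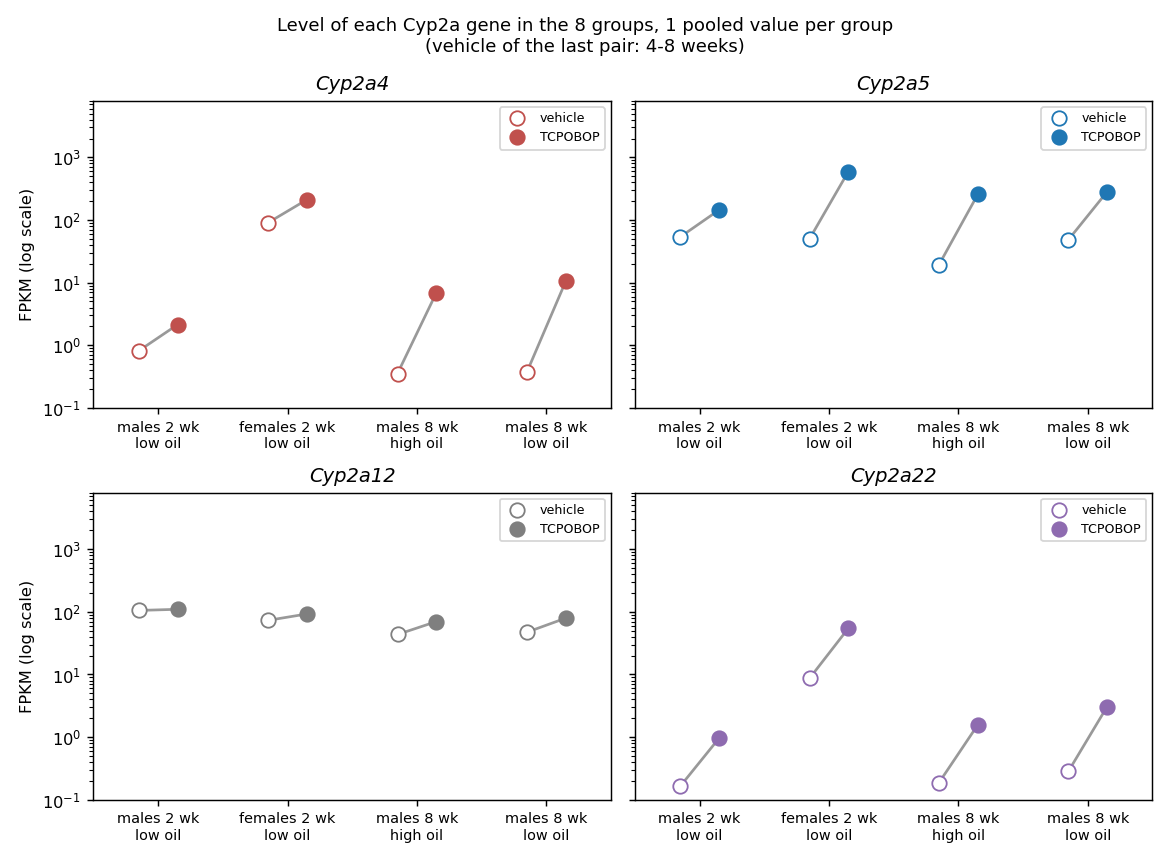
FPKM of each member on a log axis, 1 pooled value per group without a measure of spread, with vehicle (open) and TCPOBOP (filled) joined for the 4 treatment comparisons. Cyp2a4 and Cyp2a22 are highest in females, Cyp2a5 is above 100 FPKM in every TCPOBOP group, and Cyp2a12 stays between 43.5 and 109.7 FPKM.

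Cyp2a5, the coumarin hydroxylase, was at 53.5 FPKM with vehicle and 144 FPKM in TCPOBOP males at 2 weeks. In females of the same age it was at 50.1 FPKM with vehicle and 594 FPKM in TCPOBOP livers. At 8 weeks it was at 19.3 and 256 FPKM in vehicle and TCPOBOP males of the high corn oil regimen, and at 48.3 and 283 FPKM in those of the low corn oil regimen. All 4 TCPOBOP groups thus lay above all 4 vehicle groups, with females highest and the 2-week males lowest among the treated. Cyp2a5 rose 2.57-fold in 2-week males in the authors' deposited table (log2 fold change 1.36, adjusted p = 0.00888). The authors' deposited table gave an 11.8-fold rise in females (3.56, adjusted p = 6.24e-15). At 8 weeks the rise in the authors' deposited table was 13.5-fold in the high corn oil regimen (3.76, adjusted p = 8.13e-07) and 5.51-fold in the low one (2.46, adjusted p = 3.01e-05). Among all genes in TCPOBOP females, Cyp2a5 held rank 32 from the top by FPKM, against rank 529 in vehicle females.

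At 8 weeks the pooled Cyp2a5 levels of both regimens lay further apart in vehicle than in TCPOBOP males. Vehicle males of the high corn oil regimen held less Cyp2a5 than those of the low one (log2 difference of levels −1.32 with 0.1 FPKM added), a ratio of 2 pooled values with no test. In the authors' deposited table the TCPOBOP groups of both regimens differed by a log2 fold change of −0.01 (adjusted p = 1). Doses, oil volume, the age of part of the vehicle mice and the set code in the library titles also differed between the regimens, and their effects cannot be told apart.

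Cyp2a4, the steroid hydroxylase of the female liver, was low in every vehicle male group, at 0.814 FPKM at 2 weeks, 0.354 FPKM in the high corn oil regimen and 0.374 FPKM in the low one. In the matching TCPOBOP males it was at 2.13, 6.87 and 10.5 FPKM. In females it was at 90.6 FPKM with vehicle and 211 FPKM in TCPOBOP livers. Every female group lay above every male group, treated or not, and each TCPOBOP group lay above its vehicle group. Cyp2a4 rose 20.2-fold in 8-week males of the high corn oil regimen in the authors' deposited table (log2 fold change 4.34, adjusted p = 2.74e-08). It rose 26.2-fold in those of the low one in the authors' deposited table (4.71, adjusted p = 4.28e-08). In females the rise in the authors' deposited table was 2.31-fold (1.21, adjusted p = 1.05e-05). For 2-week males the authors' deposited table gave a log2 fold change of 1.29 with an adjusted p of 0.663, which was not called.

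The highest male level of Cyp2a4, found in 8-week TCPOBOP males of the low corn oil regimen, was 3.70% of the Cyp2a5 level in the same livers. As a percentage of Cyp2a5 it went with TCPOBOP from 1.52 to 1.48 in 2-week males, from 1.84 to 2.69 in the high corn oil regimen and from 0.775 to 3.70 in the low one. The part that reads shared with Cyp2a5 have in these low Cyp2a4 values was not tested. In vehicle females Cyp2a4 was at 181% of Cyp2a5, and in TCPOBOP females at 35.6%. Summed over both genes, the level went from 54.4 to 147 FPKM with TCPOBOP in 2-week males and from 141 to 805 FPKM in females. It went from 19.6 to 263 FPKM and from 48.6 to 294 FPKM in 8-week males of the high and low corn oil regimens.

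Cyp2a22, the near-copy of Cyp2a12, was the lowest member in vehicle livers of both sexes. In males it was at 0.164, 0.187 and 0.283 FPKM in the vehicle groups at 2 weeks, of the high corn oil regimen and of the low one. With TCPOBOP it was at 0.957, 1.57 and 3.07 FPKM in the same order. In females it was at 8.69 FPKM with vehicle and 54.7 FPKM in TCPOBOP livers, above every male group. The authors' deposited table gave a 6.16-fold rise in females (log2 fold change 2.62, adjusted p = 3.01e-07). In 8-week males it rose 8.31-fold in the high corn oil regimen (3.06, adjusted p = 0.000291) and 10.2-fold in the low one (3.34, adjusted p = 1.55e-08) in the authors' deposited table. The 2-week male value in the authors' deposited table was 2.44 with an adjusted p of 0.139, not called. The read counts behind these male levels are unknown, and the ratio depends strongly on how low values are treated. With 1 FPKM added to both levels the log2 ratio was 0.75 at 2 weeks, and 1.11 and 1.66 at 8 weeks.

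Cyp2a12, the other steroid hydroxylase, varied least. It was at 105 FPKM with vehicle and 109.7 FPKM in TCPOBOP males at 2 weeks, and at 73.1 and 92.4 FPKM in females. At 8 weeks it was at 43.5 and 69.8 FPKM in the high corn oil regimen and at 47.2 and 79.2 FPKM in the low one. Its highest level was 2.52 times its lowest, against 30.8 times for Cyp2a5, 334 times for Cyp2a22 and 597 times for Cyp2a4. In the authors' deposited table its log2 fold changes with TCPOBOP were −0.02 in 2-week males (adjusted p = 1), 0.31 in females (adjusted p = 0.946), 0.72 in the high corn oil regimen (adjusted p = 0.568) and 0.67 in the low one (adjusted p = 0.610). None of these was called, which does not show that the level was the same.

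**Figure D3:**
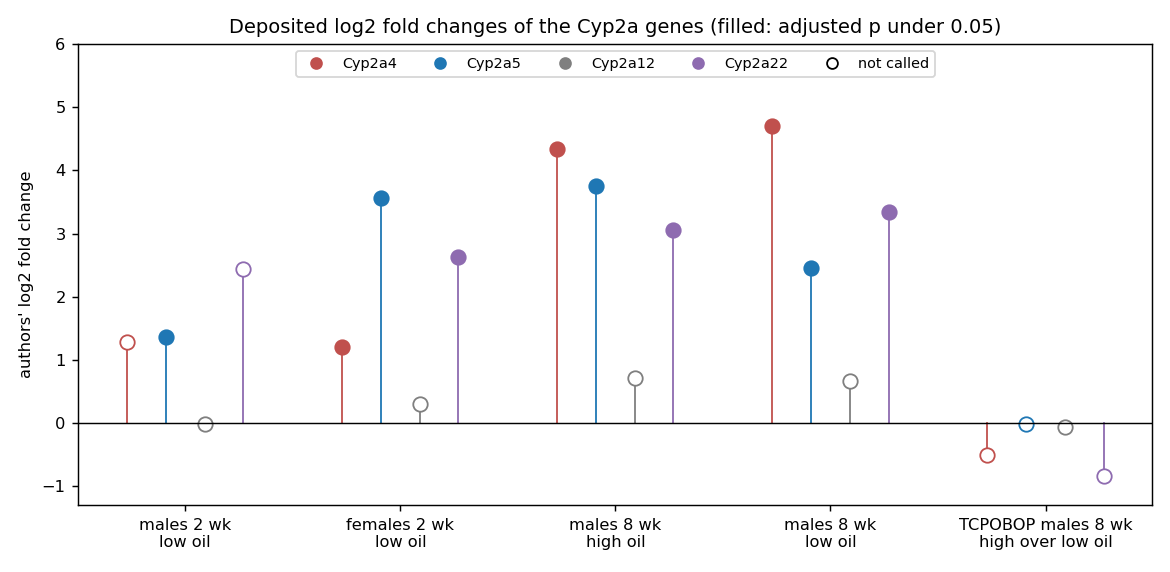
Log2 fold changes of the authors' deposited table for the 4 members in the 5 comparisons, filled where the adjusted p was under 0.05. Cyp2a5 is filled in all 4 treatment comparisons, Cyp2a12 in none, and no member is filled between the TCPOBOP groups of both corn oil regimens.

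The size order of the rises differed between comparisons. In females the largest rise among the members was that of Cyp2a5, at rank 86 by fold of the 836 genes that rose in the authors' deposited table. In 8-week males Cyp2a4 came first, at rank 84 of 987 in the high corn oil regimen and rank 65 of 900 in the low one in the authors' deposited table. This order rests on low vehicle levels of Cyp2a4. With 1 FPKM added to both levels, the log2 ratio in the high regimen was 2.54 for Cyp2a4 and 3.66 for Cyp2a5, the reverse order. In the low regimen the ratios were 3.06 and 2.53. Whether the response of a member differed between the sexes, or between 2 and 8 weeks, was not tested, since the table holds no values of single livers. The 2-week and 8-week mice also differed in age and in the number of doses.

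The fifth deposited comparison set TCPOBOP males of the high corn oil regimen against those of the low one at 8 weeks, and it uses the same TCPOBOP libraries as both 8-week treatment comparisons. None of the 4 members was called, where 7.41% of all genes were called in either direction in the authors' deposited table. Beside Cyp2a5, the log2 fold changes in the authors' deposited table were −0.49 for Cyp2a4 (adjusted p = 1), −0.83 for Cyp2a22 (adjusted p = 0.258) and −0.06 for Cyp2a12 (adjusted p = 1). The authors' scaling raised the log2 fold changes of this comparison by a median of 0.15 over the ratio of the FPKM values, and shifted those of the 8-week low corn oil comparison by −0.11.

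The member with most transcript differed between vehicle and TCPOBOP livers in 3 of the 4 comparisons, and was Cyp2a5 in every TCPOBOP group. In 2-week vehicle males Cyp2a12 made up 65.9% of the summed FPKM of the 4 genes and Cyp2a5 33.5%. In the matching TCPOBOP males Cyp2a5 made up 56.2% and Cyp2a12 42.6%. In vehicle females the sum was shared by Cyp2a4 at 40.7%, Cyp2a12 at 32.9%, Cyp2a5 at 22.5% and Cyp2a22 at 3.91%. In TCPOBOP females Cyp2a5 reached 62.4%, Cyp2a4 held 22.2%, Cyp2a12 9.70% and Cyp2a22 5.74%. At 8 weeks Cyp2a5 went from 30.4% to 76.6% in the high corn oil regimen and from 50.2% to 75.3% in the low one. The sum itself was 159.8 and 257 FPKM in vehicle and TCPOBOP males at 2 weeks, and 222 and 953 FPKM in females. It was 63.3 and 334 FPKM in the high corn oil regimen at 8 weeks, and 96.2 and 376 FPKM in the low one.

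**Figure D4:**
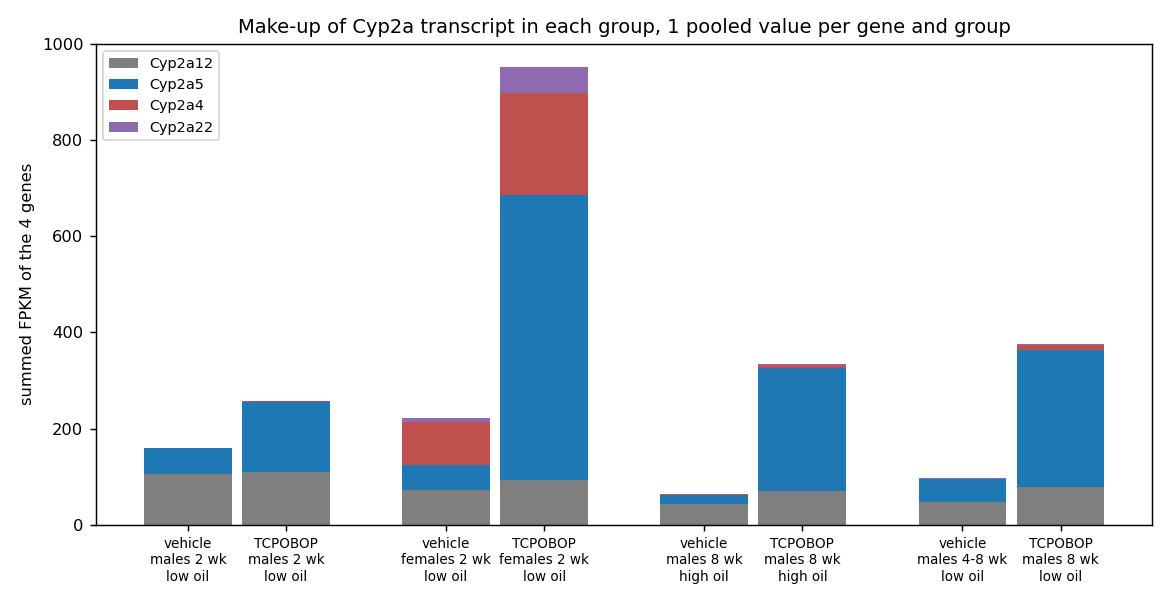
Summed FPKM of the 4 members in each group, split by gene, 1 pooled value per gene and group without a measure of spread. The TCPOBOP females reach 953 FPKM, with Cyp2a5 the largest part, and Cyp2a4 is a visible part only in females.

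Cyp2a4 and Cyp2a22 were the members with the large sex difference. The sexes were not tested against each other here, and the ratios that follow are descriptions of pooled values, as log2 differences of levels with 0.1 FPKM added. In vehicle livers at 2 weeks the female level of Cyp2a4 was 99.2-fold above the male level (log2 difference 6.63), and that of Cyp2a22 was 33.3-fold above it (5.06). Cyp2a5 differed by −0.10 and Cyp2a12 by −0.53, where the median of all genes of at least 1 FPKM was 0.11. In TCPOBOP livers the female level was 94.7-fold higher for Cyp2a4 (6.56) and 51.8-fold higher for Cyp2a22 (5.70). That of Cyp2a5 was then 4.11-fold higher (2.04), and that of Cyp2a12 differed by −0.25. Cyp2a5 was thus near level between the sexes without TCPOBOP and higher in females with it, in single pooled values.

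Among vehicle males of the low corn oil regimen, Cyp2a12 was at 105 FPKM in the 2-week group and at 47.2 FPKM in the 4 to 8 week group, a log2 difference of −1.15. Cyp2a4 differed by −0.95, Cyp2a5 by −0.15 and Cyp2a22 by 0.54 on the same scale. Between these 2 groups the summed level of the 6 hepatocyte markers went from 13256 to 5217 FPKM. Alb, the albumin gene, went from 7834 to 2433 FPKM, Apoa1 from 3321 to 1395 FPKM and Ttr from 1585 to 789 FPKM. The other markers did not follow, with Cps1 at 127 and 118 FPKM, Fah at 115 and 139 FPKM and Tat at 272 and 343 FPKM. The part of these changes in the lower Cyp2a12 level was not tested. Age, the number of injections and the set code in the library titles cannot be told apart here, and there is no test.

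Genes around and beside the members were read in the same way, from lists chosen with earlier results of these data known. For these lists, which hold calls in both directions, the share of all genes that fell in the authors' deposited table was 1.78% in 2-week males, 3.18% in females, and 1.88% and 2.81% in 8-week males of the high and low corn oil regimens. Of 9 Cyp2 genes of the same cluster, 3 rose in each treatment comparison, and 1 fell in 2-week males. Cyp2b10, the usual marker of CAR activation, rose 132.7-fold in 2-week males (adjusted p = 9.37e-107) and 67.9-fold in females (adjusted p = 8.92e-40) in the authors' deposited table. Its level went from 2.41 to 335 FPKM in these males and from 7.25 to 499 FPKM in females, so that Cyp2a5 in TCPOBOP females was at a higher level than Cyp2b10. Cyp2b9 and Cyp2b13, both known as female-predominant in mouse liver, were at 1.25 and 0.131 FPKM in 2-week vehicle males and at 26.5 and 25.8 FPKM with TCPOBOP. In the authors' deposited table Cyp2b13 rose 181.4-fold there (adjusted p = 8.51e-53) and Cyp2b9 rose 20.0-fold (adjusted p = 5e-09). In females Cyp2b9 was at 118 FPKM with vehicle and 112 FPKM in TCPOBOP livers and was not called (adjusted p = 1) in the authors' deposited table.

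Several electron donors and other partners of these enzymes rose as well. The 5 listed genes were Por, Cyb5a, Cyb5b, Cyb5r3 and Pgrmc1. Of these, 3 rose in 2-week males, 4 in females, and 4 and 3 in 8-week males of the high and low corn oil regimens, and none fell. The counts for females and for both 8-week comparisons include Pgrmc1, which is listed as a partner and not as a donor. Por, the oxidoreductase that passes electrons to all microsomal P450s, went from 23.99 to 105 FPKM in 2-week males and from 36.7 to 240 FPKM in females. In the authors' deposited table these rises were 4.19-fold (adjusted p = 7.22e-18) and 6.50-fold (adjusted p = 6.61e-23). At 8 weeks the authors' deposited table gave Por rises of 4.19-fold and 2.97-fold in the high and low corn oil regimens. Cyb5a, the microsomal cytochrome b5, rose in all 4 treatment comparisons, by 2.01-fold to 3.07-fold in the authors' deposited table.

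Genes listed for the handling of nicotine, coumarin and bilirubin were mixed. In 2-week males 2 of 9 rose and 1 fell, and in females 3 rose and none fell. In 8-week males 2 rose and 1 fell in the high corn oil regimen, and 1 rose and 2 fell in the low one. Ugt1a1, which conjugates bilirubin, rose in all 4, by 2.19-fold in 2-week males and 4.64-fold in females in the authors' deposited table. For Aox3, an aldehyde oxidase, the authors' deposited table gave falls in the 3 male comparisons, with log2 fold changes of −1.24, −0.91 and −1.15. In females Aox3 went from 52.1 FPKM with vehicle to 40.8 FPKM with TCPOBOP, not called (adjusted p = 0.416) in the authors' deposited table. Fmo5, a flavin monooxygenase, rose 2.29-fold in 2-week males and 2.16-fold in females in the authors' deposited table.

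Of 14 regulators reported for Cyp2a genes, at most 1 rose and at most 2 fell in any treatment comparison. Nr1i3, the receptor that TCPOBOP activates, fell in all 4. Its level went from 147 to 31.0 FPKM in 2-week males and from 176 to 59.7 FPKM in females, and from 115 to 25.2 and 171 to 31.0 FPKM in 8-week males of the high and low corn oil regimens. The authors' deposited table gave log2 fold changes of −2.32, −1.57, −2.15 and −2.57 for Nr1i3, with the highest adjusted p at 1.22e-07. Ahr, the aryl hydrocarbon receptor, rose in 2-week males (log2 fold change 0.90), females (0.68) and 8-week males of the low corn oil regimen (1.07) in the authors' deposited table. In the high corn oil regimen Ahr was not called there (0.80, adjusted p = 0.100). Between the TCPOBOP males Ahr was lower in the high than in the low regimen (−0.62, adjusted p = 0.0339) in the authors' deposited table. Hnrnpa1, an RNA-binding protein known to bind the Cyp2a5 transcript, fell in females (log2 fold change −0.76 in the authors' deposited table) and was not called in the other treatment comparisons. It was higher in the TCPOBOP males of the high than of the low corn oil regimen (log2 fold change 0.63, adjusted p = 0.0285) in the authors' deposited table.

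Since Cyp2a4 is female-predominant, 13 other sex-biased steroid and P450 enzymes were read beside it. In females 5 rose and 6 fell, in 2-week males 2 rose and none fell, and in 8-week males 3 rose and 2 fell in the high corn oil regimen and 2 rose and 3 fell in the low one. Cyp2c40, another P450 known for its higher level in females, went from 69.5 to 3.63 FPKM in females, a log2 fold change of −4.28 in the authors' deposited table (adjusted p = 4.88e-28). Hsd3b5, a male-predominant steroid dehydrogenase, went from 8.60 to 0.0861 FPKM in females, where the authors' deposited table gave a log2 fold change of −6.62 (adjusted p = 3.66e-43). Among the genes of this list that rose in females, Cyp2d9, known as male-predominant, had a log2 fold change of 2.94 (adjusted p = 2.48e-06) and the female-predominant Cyp2b13 one of 1.17 (adjusted p = 0.000272) in the authors' deposited table. Cyp2d9 was picked here after its values were seen. The other listed genes called in females were Cyp3a16, Cyp3a41a, Cyp3a44 and Cyp2u1, which fell, and Cyp17a1, Cyp4a12a and Cyp7b1, which rose. In 2-week vehicle livers the Cyp3a genes and Cyp17a1 were higher in females, and Cyp2u1, Cyp4a12a and Cyp7b1 in males. Rises and falls in females thus both occurred among female- and male-predominant enzymes. The genes are few, and the vehicle female level enters both some of these sex labels and the female fold change. No pattern by sex bias is therefore read from them.

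Of 8 genes of growth hormone signalling, none rose in 2-week males, females or the high corn oil regimen, and 1 rose in the low one, while 1, 2, 1 and 2 fell. Bcl6, a repressor known to hold female-biased genes down in the male liver, went from 14.4 to 5.43 FPKM in 2-week males. It went from 12.3 to 4.64 FPKM and from 21.6 to 4.24 FPKM in 8-week males of the high and low corn oil regimens. Bcl6 fell in these 3 comparisons, with log2 fold changes in the authors' deposited table of −1.51 (adjusted p = 0.0165), −1.36 (adjusted p = 0.00110) and −2.47 (adjusted p = 1.04e-08). In females it was at 2.84 FPKM with vehicle and 4.04 FPKM in TCPOBOP livers, not called (adjusted p = 0.601) in the authors' deposited table. Socs2, a feedback inhibitor of the pathway, fell in females, by a log2 fold change of −1.71 in the authors' deposited table (adjusted p = 5.39e-17). Cish, a related inhibitor, was at 1.07 FPKM in the low corn oil vehicle males treated for 4 to 8 weeks, against 7.72 to 32.3 FPKM in the other vehicle groups, and rose 13.2-fold in that comparison of the authors' deposited table (adjusted p = 7.92e-13).

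**Figure D5:**
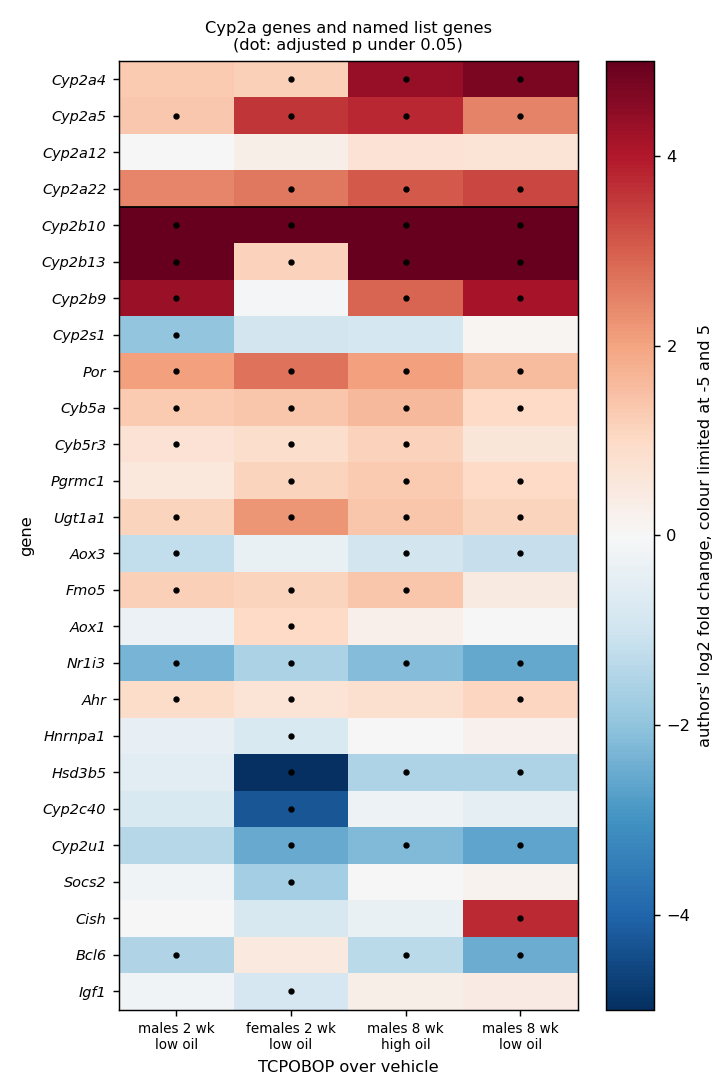
Log2 fold changes of the authors' deposited table for the 4 members (above the line) and for the list genes named by rule, in the 4 comparisons of TCPOBOP with vehicle, with a dot where the adjusted p was under 0.05. Cyp2b10, Cyb5a, Por and Ugt1a1 rise and Nr1i3 falls in all 4, and Cyp2b9 and Bcl6 have their dots in male comparisons.

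The genes whose level across the 8 groups was most like that of each member were ranked by Pearson's r of log2(FPKM + 0.1) over 11324 genes. The 8 points are pooled values of groups that differ by sex and treatment at once, so r is a description without a p. For Cyp2a4 they were Cyp2a22 (r = 0.97), the organic anion transporter Slco1a4 (0.97) and the sodium pump subunit Atp1b3 (0.97). Those for Cyp2a5 were Fam110c, Asrgl1 and Reep1, each at 0.98. For Cyp2a22 they included Anxa3 (0.98) and Cyp2a4 (0.97). Those for Cyp2a12 were Scamp1 (0.98), Xkr9 (0.98) and Tspan12 (0.96). Between members of one sequence pair r was 0.65 for Cyp2a4 with Cyp2a5 and 0.35 for Cyp2a12 with Cyp2a22, so the pairs by sequence were not the pairs by level.

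The labelled tissue was checked against marker genes. All 6 hepatocyte markers were present in every group, with summed levels of 5217 to 15307 FPKM. The 5 markers of each other cell type summed to 67.7 to 141 FPKM for Kupffer cells, 82.9 to 149.6 FPKM for endothelium, 117 to 196 FPKM for stellate cells and 8.99 to 24.7 FPKM for cholangiocytes, and none was at 0 in any group. The cholangiocyte sum was higher in the 8-week TCPOBOP groups, at 24.68 and 23.996 FPKM against 9.96 and 8.99 FPKM in their vehicle groups. Most of it came from Spp1, at 22.1 and 21.8 FPKM against 6.99 and 6.78 FPKM. In the authors' deposited table Spp1 was called in the low regimen (adjusted p = 0.00223) and not in the high one (adjusted p = 0.0612). The other listed markers did not move together. Sox9 and Krt7 were lower and Epcam and Krt19 higher with TCPOBOP in both regimens, none of them called. The part of the cholangiocyte sum in the Cyp2a results was not tested. The hepatocyte sum went with TCPOBOP from 13256 to 10015 FPKM in 2-week males and from 15307 to 13167 FPKM in females. It went from 8480 to 11619 FPKM in the high and from 5217 to 7899 FPKM in the low corn oil regimen at 8 weeks. Single markers moved in both directions there. In both regimens the pooled levels of Alb, Apoa1 and Ttr went up, while those of Fah and Tat went down. Of these changes the authors' deposited table called those of Apoa1 in both regimens and of Tat in the low one, and no others. Apoa1 went from 2469 to 5054 FPKM in the high regimen, and Tat from 343 to 151 FPKM in the low one. Cps1 was at 114 and 112 FPKM in the high and at 118 and 132 FPKM in the low regimen. The sum thus does not stand for each marker, and its part in the Cyp2a results was not tested. In such whole-liver samples, fewer cells of a type and less RNA per cell cannot be told apart.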

How the data were processed

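The labels describe 28 stranded libraries of polyadenylated liver nuclear RNA, 1 liver each, so the p-values measure the spread between mice. Per the submitters' processing notes, TopHat2 2.0.13, featureCounts 1.4.6-p5, edgeR and the build mm9 were used. Counting covered gene bodies of RefSeq genes, per the file headers. The FPKM values were deposited as 1 value per group, and the sources used here do not state how the mice of a group were combined. The signed fold change is the authors' score, a negative inverse for a decrease, converted here to log2 fold changes. The p-values come from the authors' edgeR comparisons in the deposited table and were read as adjusted over all genes because of their pile-up at 1 and their tied runs. No values of single libraries are in the table, so no fit was made here, and depth and counting error are unknown.

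The members, the lists and the motifs were chosen with earlier results of these data known. Named were the 4 members, for each the 3 genes of highest r among genes of at least 1 FPKM in a group, and from each list up to 4 called genes of smallest adjusted p, and always Nr1i3 and Cyp2b10. The values of 1 gene that this rule names are not reported here. Descriptive ratios between groups were formed from FPKM with 0.1 added. The ranking by r was tested on simulated data. Promoters are those of RefSeq on GRCm38.p6 (4 of 4 members matched), and coding sequences are the longest frames of GENCODE M21 transcripts. Both are of the reference strain C57BL/6J and not of CD-1 mice, and neither is the build of the counts. Protein sequences were not used here. One female TCPOBOP library carries another set code in its label than in the file headers, and it was kept in its labelled group. Alternatives were another pseudocount or none, the sum of Cyp2a4 and Cyp2a5, centring on the median, stricter calls and a filter on low values. Tools were Python 3.11.15, pandas 2.3.3, numpy 2.4.6, Biopython 1.88 and matplotlib 3.10.9.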

Additional observations from a re-analysis of the deposited data

How the results depend on the processing

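The number of members called was the same in all 5 comparisons at an adjusted p under 0.01 and with a change of at least 2-fold added, and no called log2 fold change and no descriptive ratio changed sign under the alternatives run. Cyp2a12 in 2-week males, which was not called, went from −0.02 to 0.06 as a plain FPKM ratio with either pseudocount. A value was taken as moved where it changed by over 1.5-fold, which 9 of 50 recomputed log2 fold changes and 4 of 48 descriptive ratios did. With Cyp2a4 and Cyp2a5 summed, the log2 ratio was 2.52 in females in place of either gene's own value, and in place of that of Cyp2a4 it was 3.74 and 2.59 in 8-week males of the high and low corn oil regimens. A pseudocount of 1 FPKM gave Cyp2a4 log2 ratios of 2.54 and 3.06 in these 8-week comparisons, and Cyp2a22 ratios of 0.75 in 2-week males and of 1.11 and 1.66 at 8 weeks. For female over male vehicle livers it gave 5.66 for Cyp2a4 and 3.06 for Cyp2a22, and for TCPOBOP livers 4.83 for Cyp2a22. Without a pseudocount the vehicle ratio of Cyp2a22 was 5.73. The cause of these shifts was not tested. Among genes of at least 0.5 FPKM in either group, the share called in either direction was 7.34%, 11.4%, 10.6% and 10.8% in the treatment comparisons, in the order 2-week males, females, and 8-week males of the high and low corn oil regimens, against 4.30%, 6.64%, 5.96% and 6.53% of all genes. It was 13.5% against 7.41% between the TCPOBOP groups. No paired analysis was possible because the table holds no values of single libraries. Leaving out libraries and count models were not run for the same reason, so how far 1 mouse decides a value is unknown here.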

Other observations

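The genes that lie between the members on chromosome 7 were mostly silent. In the RefSeq order, 7 genes of the table lie between Cyp2a4 and Cyp2a5, and 6 of them were at or under 0.1 FPKM in all 8 groups, among them Nlrp9c, Nlrp4a, Nlrp9a, Vmn1r185 and Cyp2b23, each listed at 0 throughout. The exception was Cyp2g1, a P450 best known from the olfactory mucosa, at 0.217 to 3.45 FPKM. In females Cyp2g1 went from 1.79 FPKM with vehicle to 3.45 FPKM with TCPOBOP, not called in the authors' deposited table (adjusted p = 0.137). Between the TCPOBOP males of both regimens it was at 0.272 FPKM in the high and 0.827 FPKM in the low corn oil regimen, lower in the first by a log2 fold change of −1.42 in the authors' deposited table (adjusted p = 0.0138). Beyond Cyp2a12, Cyp2f2, a P450 known as periportal in the liver lobule, was at 164 to 471 FPKM, above every level of Cyp2a12. It rose in females by a log2 fold change of 0.69 in the authors' deposited table (adjusted p = 0.0381) and was not called in the 3 male treatment comparisons. Egln2, at the end of the cluster, lay between 14.5 and 17.4 FPKM in all 8 groups. These neighbours were chosen for their position, after their values were seen.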
